A study of Mus musculus with 12 samples.

Results

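The response of the abdominal aorta to 7 days of angiotensin II (Ang II) was described in mice that kept CCN2. The comparison held 6 of the 12 libraries of the series, chosen by their labels alone: 3 CCN2fl/fl mice infused with Ang II (CFA, mice 71, 72 and 74) and 3 CCN2fl/fl mice infused with saline (CFS, mice 68, 69 and 70). All were male, carried floxed alleles of CCN2 without Cre, and were given 5 doses of tamoxifen from 8 weeks of age, followed by a washout of 2 weeks. Saline or Ang II at 500 ng/kg/min was then delivered by mini-osmotic pump, and the aorta was taken at day 7. The other 6 libraries entered the filter on low genes and the shared estimate of the spread. They were also used where the level of Ccn2 is described and in the comparison of genotypes at the end. They came from CCN2SMCΔ mice under Ang II (CSA) or saline (CSS). These mice had the same tamoxifen regimen, and their tamoxifen-inducible Cre is driven by Myh11 in smooth muscle cells (SMCs). The floxed mice lacked the Cre transgene, so that the deletion and the transgene cannot be told apart between the genotypes. The labels do not state the strain of these mice.

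Ang II is the active peptide of the renin-angiotensin system and constricts arteries through the Gq-coupled AT1 receptor of SMCs. Sustained infusion raises blood pressure and is known to thicken the arterial wall, with proliferation of wall cells, deposition of collagen and elastin, and entry of monocytes. Medial SMCs of a healthy aorta express a contractile program of actin, smooth muscle myosin and calponin, and CCN2 is a matricellular protein of the wall that is known to respond to Ang II and TGF-β.

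Each mouse gave 1 RNA-Seq library of poly(A) RNA, deposited as FPKM, a fragment count scaled to the length of the gene and the size of the library. Recovered fragments numbered 20904091 to 23102751 per CFA library and 17802647 to 20156182 per CFS library, and these ranges did not overlap (p = 0.1 in a two-sided exact permutation test, which cannot go lower with 3 mice a group). The CFA libraries also listed more genes above 0, 22635 to 22795 against 21192 to 21692. The part of this difference in the results was not tested. The tissue label was matched by SMC markers, since Acta2 alone stood at 3881 to 7650 FPKM in the 6 libraries and the summed FPKM of the 10 SMC markers was 7799, 8531 and 5660 in CFA and 8877, 10499 and 8350 in CFS. Several libraries stood apart in markers of other tissue. Summed skeletal muscle markers reached 276 FPKM in CFS mouse 68 and 51.6 to 63.7 in the others, adipocyte markers reached 3464 in CFS mouse 70 and 515 to 1263 in the others, and endothelial markers were at 195 in CFS mouse 69 and 378 to 713 in the others. Markers of adrenal gland, kidney and pancreas summed to 26.2 FPKM in CFA mouse 72 and 17.5 in CFA mouse 74, and to 5.04 to 9.83 in the others. In bulk tissue, fewer cells of a type and less RNA per cell cannot be told apart.

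Over the 14676 tested genes, which reached an FPKM of 1 in 3 or more of the 12 libraries, the mice of a group were about as far from each other as from the other group. Distances, taken over genes as root mean squares of the differences in log2(FPKM + 0.1), averaged 0.701 among CFA pairs, 0.719 among CFS pairs and 0.777 between the groups. CFA mouse 74 lay closer to the saline mice (mean distance 0.689) than CFA mouse 71 (0.784) or CFA mouse 72 (0.860) did. The mean distance of CFA mouse 74 to the other CFA mice was 0.695. By this measure the nearest pair, CFA 71 and CFA 74, was 0.648 apart. By 1 minus Spearman's correlation the nearest pair was CFA 74 and CFS 70 (0.0296), with CFA 71 and CFA 74 at 0.0311. All 6 libraries were kept as separate mice.

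With limits of 0.05 on the adjusted p and 1.5 on the size of the log2 fold change, 4 genes differed between CFA and CFS, which is 0.0273% of the genes tested, with 3 higher (0.0204%) and 1 lower (0.00681%) under Ang II. At an unadjusted p under 0.05, 824 genes were higher (5.61%) and 559 lower (3.81%). The median log2 fold change over all tested genes was -0.00116.

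S1pr3 (ENSMUSG00000067586, chromosome 13, 51408639 to 51422797), a receptor for sphingosine 1-phosphate, stood at 7.81, 7.94 and 11.3 FPKM with Ang II against 32.6, 25.7 and 34.1 with saline, in the order 71, 72, 74 and 68, 69, 70 that is kept throughout (positions are on GRCm38). Each CFA mouse was below each CFS mouse, and S1pr3 fell 3.41-fold from 30.8 ± 4.48 to 9.03 ± 2.0 FPKM (SD, n = 3 each). Its log2 fold change was -1.77 with a 95% interval of -2.17 to -1.37 and a standard error of 0.18, and its Benjamini-Hochberg adjusted p in limma was 0.0171. Cthrc1 (ENSMUSG00000054196, chromosome 15, 39076932 to 39087121), a secreted collagen triple helix repeat protein made by activated fibroblasts and injured arteries, stood at 6.94, 7.42 and 3.55 FPKM with Ang II against 0.611, 0.57 and 1.13 with saline. It rose 7.76-fold (log2 fold change 2.79, standard error 0.34, adjusted p = 0.0485), with mouse 74 the lowest of the treated animals but still above all controls. Pbk (ENSMUSG00000022033, chromosome 14, 65805837 to 65817822), a kinase of mitotic cells, stood at 5.31, 9.16 and 1.34 FPKM with Ang II against 0.151, 0 and 0.0971 with saline and rose (log2 fold change 4.61, standard error 0.63, adjusted p = 0.0485), and its recovered fragments were 207, 348 and 51 against 5, 0 and 3.

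The third gene that rose, Gm11223 (ENSMUSG00000046341, chromosome 4, 69925630 to 69926079), is a processed pseudogene whose fragments could belong to its parent gene. Its recovered fragments were 18, 18 and 17 with Ang II and 0, 2 and 0 with saline, a ratio of 22.8 per library total with a 95% counting interval of 6.02 to 193 (exact, counting error only), and the fitted log2 fold change was 3.69 (standard error 0.48, adjusted p = 0.0485). Gxylt2 (ENSMUSG00000030074, chromosome 6, 100704734 to 100810913), a xylosyltransferase that extends O-glucose on epidermal growth factor-like repeats, passed the adjusted p, as 5 genes in all did (0.0341% of those tested), but not the fold limit. It was measured at 59.4, 43.1 and 45.7 FPKM with Ang II against 26.6, 20.3 and 23.7 with saline, so that the groups did not overlap (log2 fold change 1.06, standard error 0.14, adjusted p = 0.0485). None of the 4 called genes was called in the fit of the 2 groups alone, where 967 genes were higher and 942 lower at an unadjusted p under 0.05 and limma called 0 genes.

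The number of calls turned on which mice were fitted. Without CFA mouse 74, 112 genes were called higher (0.763% of those tested) and 12 lower (0.0818%), the 4 calls above among them. Over the 112, the level of mouse 74 lay between the CFS mean and the mean of mice 71 and 72 in 107, at a median of 39.5% of the way on the log2 scale, and the 3 CFA mice still lay above the 3 CFS mice in 102. Over the 12, mouse 74 lay between these means in 11, at a median of 18.2% of the way. The 3 CFA mice lay below the 3 CFS mice in 8 of the 12. Calls without mouse 74, here and below, leave out the CFA mouse nearest to the saline mice and are no independent support. Leaving out CFA mouse 71 or 72, or CFS mouse 68 or 70, left 0 calls in either direction (limma, 973 to 1140 genes at an unadjusted p under 0.05), and leaving out CFS mouse 69 left 1 in each. Mice of the other genotype acted through the shared estimate of the spread: 17 genes were called without CSA mouse 03, 0 without CSS mouse 54 or 56 (1222 and 1206 at an unadjusted p under 0.05), 1 without CSA mouse 01 or 02, and 2 without CSS mouse 55.

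**Figure D1:**
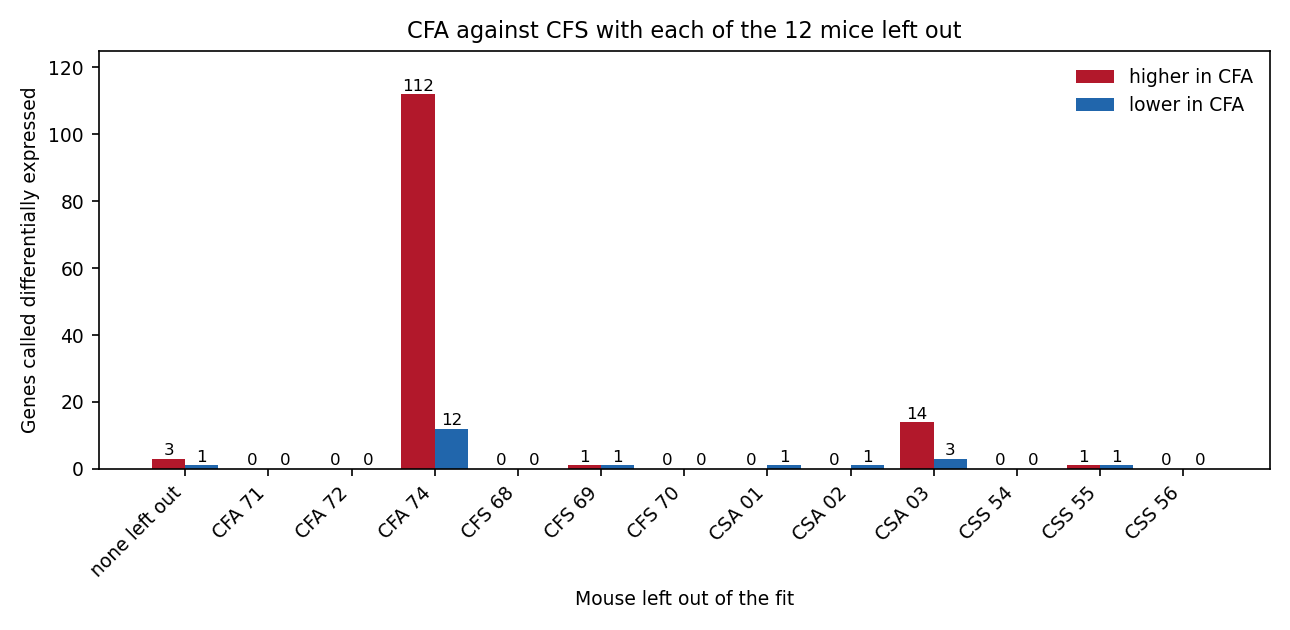
Number of genes called between CFA and CFS (vertical axis, genes) when no mouse or each of the 12 mice in turn (horizontal axis) is left out of the limma fit; red bars are genes higher and blue bars genes lower in CFA. The count is 3 higher and 1 lower with all mice, 112 and 12 without CFA mouse 74, and at most 14 and 3 without any other mouse.

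With all mice, the list of cell division genes had the largest median difference of the 36 gene lists, followed by erythrocyte markers at 2.03. Erythrocyte markers had the larger median without CFS mouse 69 (3.09), without CFA mouse 72 (2.36 against 1.71) and with a pseudocount of 1, array weights or either stricter filter. All 40 cell division genes were tested and had a higher mean log2 level in CFA, with a median log2 fold change of 2.17. At an unadjusted p under 0.05, 32 of the 40 (80.0%) were higher and 0 lower, against 5.61% and 3.81% of all tested genes. In 26 of the 40 (65.0%) the 3 CFA mice lay above the 3 CFS mice, against 9.44% of all tested genes. No member passed the adjusted test with all mice. Only 17 of the 40 pass the filter when it is applied to the 6 floxed libraries alone, with a median of 1.08. Of these 17, 10 were higher at an unadjusted p under 0.05, against 539 of all 13067 genes that pass that filter. Either filter can be passed through high values under Ang II alone, as Ccnb2 and Ube2c passed that on the 6 libraries. The counts of higher members are thus partly set by the filter. The 5 members with a mean of at least 5 FPKM had a median of 0.41, and 1 of them was higher at an unadjusted p under 0.05. With a pseudocount of 1 the median of the 40 was 0.96. The median member was 2.38, 3.09 and 0.87 log2 units above its CFS mean in CFA mice 71, 72 and 74, and 0.19, -0.24 and 0.13 from it in CFS mice 68, 69 and 70. All treated mice were thus above all controls, with mouse 74 nearest to them.

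**Figure D2:**
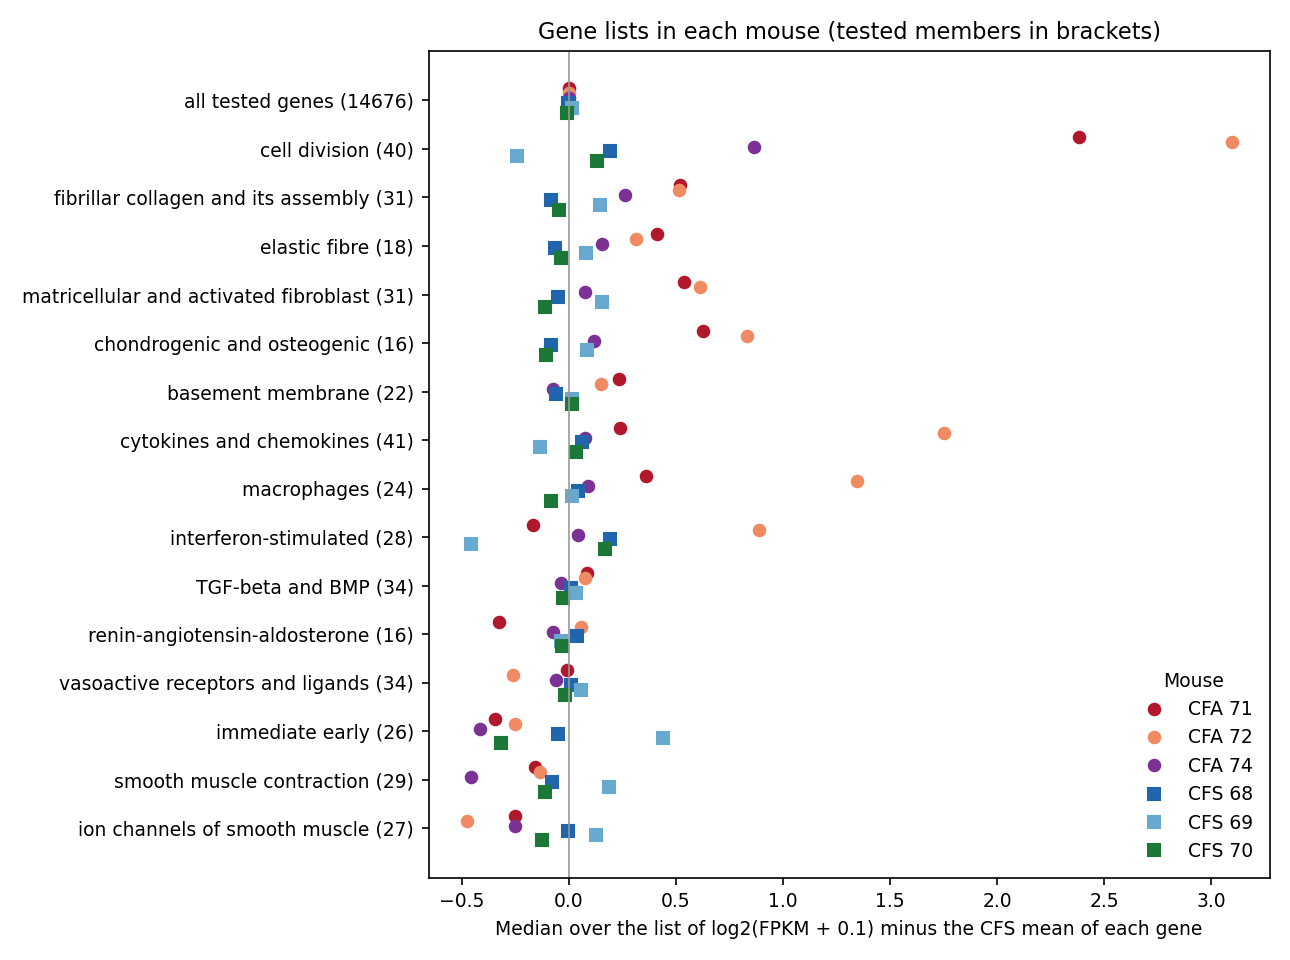
Median over all tested genes and each of 15 gene lists (vertical axis, tested members in brackets) of log2(FPKM + 0.1) minus the CFS mean of each gene (horizontal axis, log2 units), 1 point per mouse, circles for CFA and squares for CFS. Cell division reaches 3.09 in CFA mouse 72, cytokines and chemokines 1.75 in the same mouse against 0.24 in CFA mouse 71, and the 3 CFA mice lie lowest of the 6 for smooth muscle contraction.

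The members described next act mainly in mitosis. Ccnb2 (ENSMUSG00000032218, chromosome 9, 70407692 to 70421547), a B-type cyclin that drives entry into mitosis, was measured at 5.04, 8.74 and 1.48 FPKM with Ang II against 0.247, 0.175 and 0.947 with saline (log2 fold change 3.16, standard error 0.60, adjusted p = 0.103). Ube2c, the ubiquitin-conjugating enzyme of the anaphase-promoting complex, was at 3.76, 7.09 and 1.25 FPKM with Ang II against 0.0832, 0.144 and 0.335 with saline (log2 fold change 3.64, standard error 0.55, adjusted p = 0.0519). Ube2c shares 22.8% of its exon bases with a second annotated gene. Cdc20, which activates that complex, was at 6.51, 9.91 and 3.28 FPKM with Ang II against 1.39, 0.887 and 1.24 with saline (log2 fold change 2.28, standard error 0.35, adjusted p = 0.0519). In each of the 3 the treated mice were higher without overlap, and mouse 72 was the highest. Cdca3, a trigger of mitotic entry, was measured at 2.72, 5.43 and 0.905 FPKM with Ang II against 0.208, 0.0373 and 0.384 with saline (log2 fold change 3.19, adjusted p = 0.109), and Mki67, which encodes the proliferation antigen Ki-67, at 3.82, 5.92 and 0.835 FPKM with Ang II against 0.43, 0.213 and 0.542 with saline (log2 fold change 2.56, adjusted p = 0.175). For Mki67, mouse 74 at 0.835 was close to the highest control at 0.542.

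The size of the difference varied among the members. The log2 fold change was 0.05 for Pcna, the sliding clamp of DNA polymerase, 0.37 for Mcm3 and 0.41 for Mcm7, subunits of the replicative helicase, and 0.49 for Cdc45, and these 4 had overlapping groups. They were picked after their values were seen. Larger differences were those of Top2a, the topoisomerase of chromosome condensation (3.06), Hmmr (3.06) and Cdk1, the mitotic kinase (2.85), also picked after their values were seen, and none of the 3 overlapped. Outside the list, Stmn1, which destabilizes microtubules, was at 13.6, 21.2 and 5.35 FPKM with Ang II against 2.45, 1.56 and 3.32 with saline (log2 fold change 2.26, standard error 0.45, adjusted p = 0.106). Kif4, a chromosome-bound kinesin, was at 1.6, 2.38 and 0.257 FPKM with Ang II against 0.157, 0.0872 and 0.0631 with saline, and Cenpm, a centromere protein, at 2.24, 2.36 and 0.292 FPKM with Ang II against 0.10, 0.198 and 0.143 with saline. Stmn1 was called without mouse 74 (adjusted p = 0.00681). Kif4 and Cenpm were among the 5 genes that moved most without mouse 74, from 2.53 to 3.37 and from 2.43 to 3.30.

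**Figure D3:**
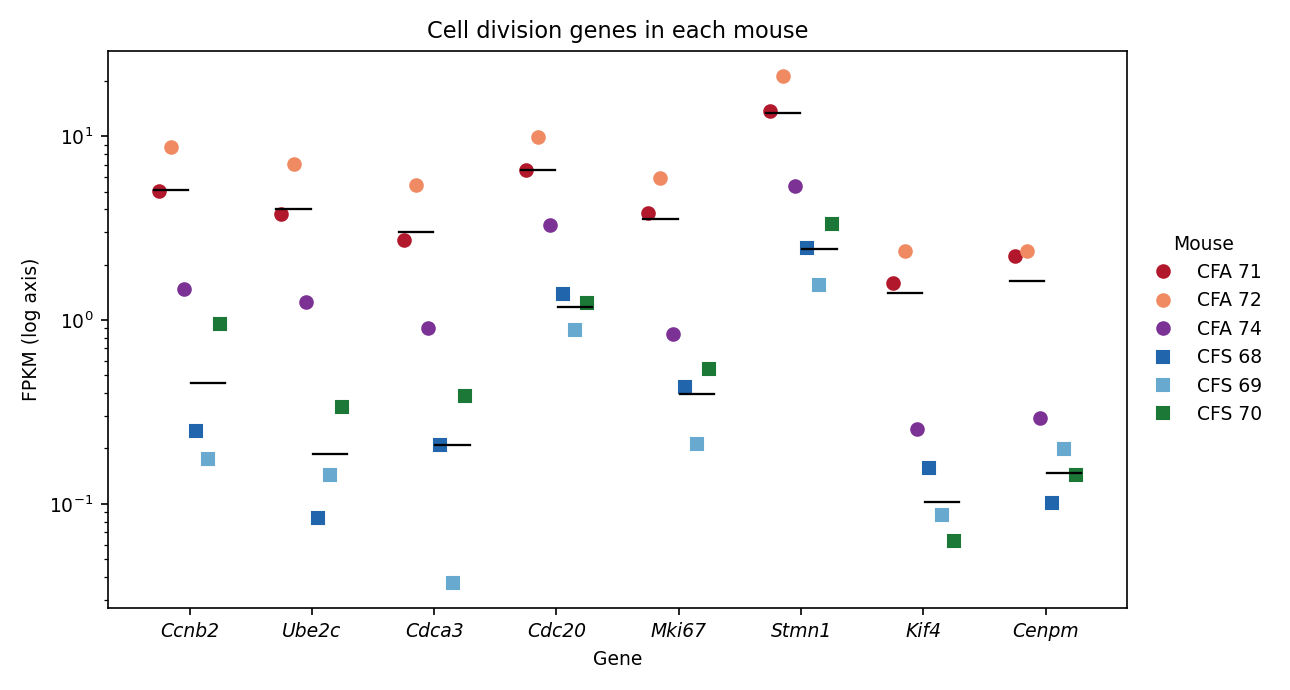
FPKM (vertical log axis) of 8 cell division genes (horizontal axis) in each mouse, circles for CFA and squares for CFS, with black lines at the group means. CFA mice 71 and 72 lie well above the CFS mice for each gene, and CFA mouse 74 lies between, for Ccnb2 at 1.48 against a highest control of 0.947 FPKM.

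Leaving out mouse 74 brought 27 of the 40 members (67.5%) to a call, all higher, against 0.763% of all tested genes called higher. Ube2c was then at 4.29 (adjusted p = 0.00299), Ccnb2 at 3.86 (adjusted p = 0.00771) and Cdc20 at 2.70 (adjusted p = 0.00299), each from limma with Benjamini-Hochberg adjustment. These calls rest on leaving out the CFA mouse nearest to the controls. Leaving out any other of the 6 mice brought 0 members to a call. With each of the 6 mice left out in turn, 28 to 37 members were higher at an unadjusted p under 0.05, 0 were lower, and the median log2 fold change ran from 1.71 to 2.76. Of all 14676 tested genes, 583 to 1041 were higher and 325 to 603 lower in the same fits.

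On both strands of the 250 bases before the start site, promoters of the cell division list were read for a pair of letter patterns. Both are known from mitotic genes: the CHR element (TTTGAA) and the CCAAT box (CCAAT). A match of one can share at most 1 end base with a match of the other. Sequences come from RefSeq on GRCm38.p6, 1 promoter per gene, for 35 of the 40 members. CCAAT was present in 29 of the 35 (82.9%), against 35.2% of all 20584 promoters and 36.1% of the 10186 of tested genes. TTTGAA was present in 9 of the 35 (25.7%), against 15.2% and 10.6%, and each of those 9 also held CCAAT, against 5.42% and 4.03% with both. By comparison CCAAT was found in 5 of 19 promoters of the fibrillar collagen list (26.3%) and 13 of 24 of the smooth muscle contraction list (54.2%). Both patterns together were found in 0 of the 19 and in 3 of the 24 (12.5%). The 200 bases before the start site are shown for 3 members described above, 5′ to 3′ on the strand of the gene, with matches to either pattern on either strand in capitals.
Ccnb2, chr9:70421555-70421754, minus strand: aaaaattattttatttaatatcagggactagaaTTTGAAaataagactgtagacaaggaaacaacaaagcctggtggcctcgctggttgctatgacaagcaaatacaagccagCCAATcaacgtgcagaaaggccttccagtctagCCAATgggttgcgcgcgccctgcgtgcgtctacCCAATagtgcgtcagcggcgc
Cdc20, chr4:118437344-118437543, minus strand: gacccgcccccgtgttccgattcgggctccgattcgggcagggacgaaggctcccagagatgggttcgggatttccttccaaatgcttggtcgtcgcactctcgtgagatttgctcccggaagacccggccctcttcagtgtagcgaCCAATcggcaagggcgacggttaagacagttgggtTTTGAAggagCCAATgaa
Mki67, chr7:135716380-135716579, minus strand: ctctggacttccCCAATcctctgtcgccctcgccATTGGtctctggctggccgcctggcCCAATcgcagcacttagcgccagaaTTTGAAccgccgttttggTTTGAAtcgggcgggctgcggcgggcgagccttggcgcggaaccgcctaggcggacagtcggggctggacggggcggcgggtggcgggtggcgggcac
In Ccnb2 the CCAAT matches start 87, 54 and 21 bases before the start site and the TTTGAA match 167 bases before it. In Cdc20 they start 53 and 8 bases before it, with TTTGAA at 18. In Mki67 the CCAAT matches lie at 188, 166 and 141 bases, farther off than in the other two, and TTTGAA at 116 and 98. A match describes the letters only, and binding was not measured. The list holds genes of cell division, in which these patterns are known, so the shares describe the list and not the response to Ang II.

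Matrix genes formed the next group. In the list for fibrillar collagen and its assembly, 14 of 31 tested members (45.2%) were higher at an unadjusted p under 0.05 and 0 lower, against 5.61% and 3.81% of all tested genes, and without CFS mouse 70 9 were higher. Groups lay apart upwards in 16 members (51.6%) and downwards in 1 (3.23%), against 9.44% and 10.8% of all tested genes, and the median log2 fold change was 0.45. Col1a1, the main chain of type I collagen, was at 1512, 1383 and 1422 FPKM with Ang II against 743, 1023 and 786 with saline. The treated mice were close to one another, mouse 74 included, and all above the controls (1.69-fold by the means, log2 fold change 0.77, standard error 0.16, adjusted p = 0.106). Col5a2, a type V collagen chain that sets fibril diameter, was at 93.7, 101 and 66.4 FPKM with Ang II against 42.1, 43.7 and 43.6 with saline (log2 fold change 0.99, standard error 0.15, adjusted p = 0.0519).

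P4ha3, a prolyl hydroxylase subunit that stabilizes the collagen helix, had the largest difference of the list at 4.01, 4.72 and 1.96 FPKM with Ang II against 0.811, 0.171 and 0.37 with saline (log2 fold change 2.82, standard error 0.41, adjusted p = 0.0519). It was the only member called without mouse 74 (3.19, adjusted p = 0.00771). Of the enzymes that cross-link collagen, Lox had a log2 fold change of 0.75, Loxl2 of 0.64 and Plod2 of 0.69, with groups apart in each, while the other prolyl hydroxylase subunits P4ha1 and P4ha2 were at -0.37 and -0.09. These 5 were picked after their values were seen, and none passed the adjusted test.

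Among elastic fibre genes, 7 of 18 (38.9%) were higher and 2 (11.1%) lower at an unadjusted p under 0.05, against 5.61% and 3.81% of all tested genes, with a median log2 fold change of 0.35. Without CFA mouse 72 or CFS mouse 69 1 was lower. Eln (ENSMUSG00000029675, chromosome 5, 134702593 to 134747323), which encodes tropoelastin, stood at 2263, 1618 and 774 FPKM with Ang II against 499, 587 and 579 with saline. All treated mice were above all controls, mouse 71 by far and mouse 74 by little (2.8-fold by the means, log2 fold change 1.35, standard error 0.42, adjusted p = 0.289). Ltbp2, a microfibril-associated protein that binds fibrillin, was at 26.2, 31.4 and 11.6 FPKM with Ang II against 5.21, 5.3 and 5.89 with saline (log2 fold change 1.94, standard error 0.32, adjusted p = 0.0616). It was the member called without mouse 74 (2.37, adjusted p = 0.00181).

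The microfibril protein gene Mfap4 was at 538, 419 and 333 FPKM with Ang II against 198, 252 and 209.8 with saline, again without overlap (log2 fold change 0.95, standard error 0.19, adjusted p = 0.106). The fibulin genes did not share 1 direction: Fbln5, needed for elastic fibre assembly, had a log2 fold change of 0.72, whereas Fbln1 was at -0.67 and Fbln7 at -0.66, all 3 with groups apart and none past the adjusted test. Those 3 were picked after their values were seen. Cela1, an elastase that the lists carry as a pancreatic marker, was at 3.01, 3.78 and 1.7 FPKM with Ang II against 0.657, 0.811 and 0.578 with saline (log2 fold change 1.84, adjusted p = 0.107), and called without mouse 74 (2.16, adjusted p = 0.0312). The summed markers of that list were highest in mice 72 and 74, and their part in this difference was not tested.

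**Figure D4:**
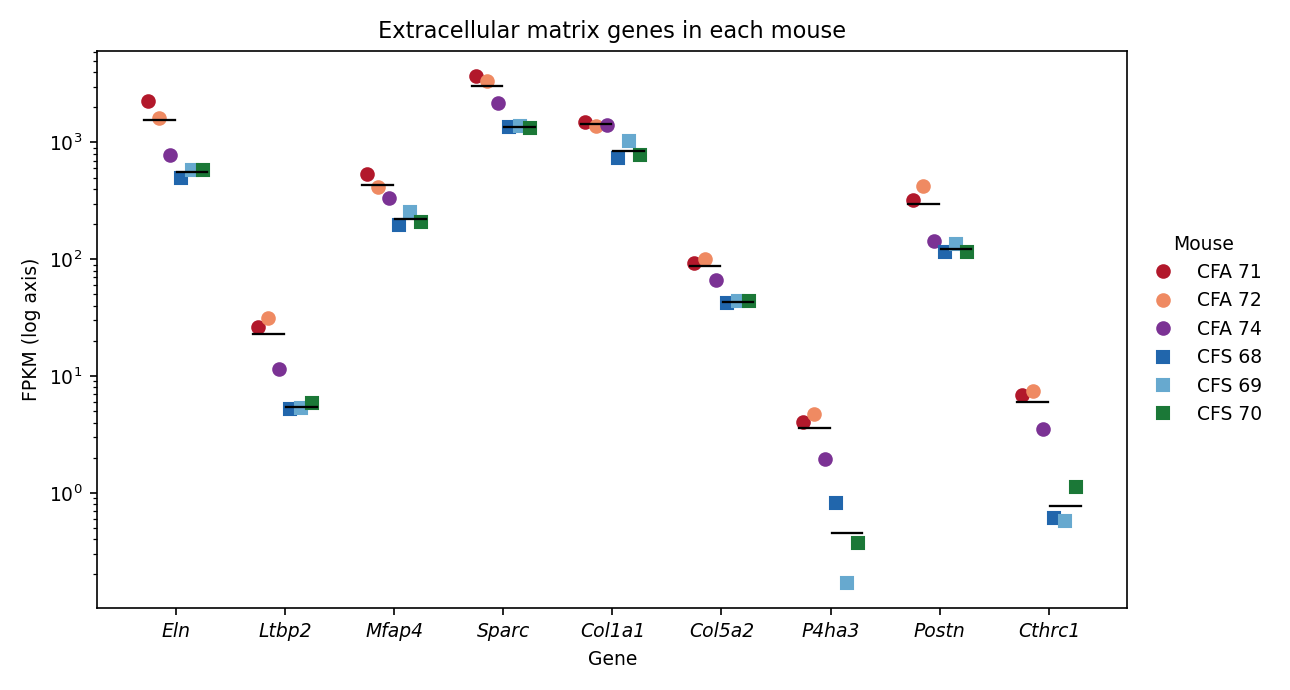
FPKM (vertical log axis) of 9 extracellular matrix genes (horizontal axis) in each mouse, circles for CFA and squares for CFS, with black lines at the group means. For each gene the 3 CFA mice lie above the 3 CFS mice, and CFA mouse 74 is the lowest CFA mouse for all but Col1a1, where mouse 72 is.

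In the list of matricellular and activated fibroblast genes, 11 of 31 (35.5%) were higher and 3 (9.68%) lower at an unadjusted p under 0.05, against 5.61% and 3.81% of all tested genes, and Cthrc1 was the 1 called member (5 members were called without CFA mouse 74, Postn and Spp1 among them). Without CFA mouse 71 or 72 or CFS mouse 69 1 was lower. Spp1, which encodes osteopontin, was at 9.22, 44.6 and 6.3 FPKM with Ang II against 4.5, 1.2 and 1.41 with saline, with mouse 72 far above the other treated mice and no overlap with the controls (log2 fold change 2.74, standard error 0.66, adjusted p = 0.165, with 18.75% of its exon bases shared with a second gene). Timp1, an inhibitor of matrix metalloproteinases, was likewise carried by mouse 72, at 29.9, 109.8 and 19.4 FPKM with Ang II against 11.3, 16 and 12.5 with saline (log2 fold change 1.60, standard error 0.55, adjusted p = 0.361). Postn, the gene of periostin, named after its values were seen, was at 325, 424 and 144 FPKM with Ang II against 115, 135 and 116 with saline (log2 fold change 1.15, standard error 0.34, adjusted p = 0.266). Its value in mouse 74 was near the controls. Fn1, the fibronectin gene, overlapped between the groups at 924, 865 and 565 FPKM with Ang II against 623, 640.0 and 527 with saline (log2 fold change 0.37, standard error 0.19, adjusted p = 0.614). Without mouse 74 its log2 fold change was 0.59. The members lower at an unadjusted p were Thbs4 (-1.35), Tgfbi (-1.03) and Tnxb (-0.56), named after their values were seen.

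Sparc, a collagen-binding glycoprotein of basement membranes, was at 3705, 3349 and 2164 FPKM with Ang II against 1353, 1375 and 1342 with saline. The controls were nearly identical and every treated mouse was higher (2.27-fold, log2 fold change 1.14, standard error 0.18, adjusted p = 0.0519, 95% interval 0.75 to 1.53). In the other members of the basement membrane list, Col4a5 was at 97.4, 80.8 and 73.8 FPKM with Ang II against 53.7, 62.5 and 51.3 with saline (log2 fold change 0.58, adjusted p = 0.244) and Col18a1 at 443, 497 and 255 FPKM with Ang II against 221, 281 and 251 with saline (log2 fold change 0.62, adjusted p = 0.691), where mouse 74 lay inside the control range. Of the 22 tested members, 3 (13.6%) were higher at an unadjusted p under 0.05, against 5.61% of all tested genes, and 5 without CFA mouse 74. Adamts15, a protease that cleaves versican and aggrecan, was lower in all treated mice, at 13, 7.45 and 19 FPKM with Ang II against 22.3, 30.2 and 24 with saline (log2 fold change -1.04, standard error 0.32, adjusted p = 0.294). In the whole list of proteases and inhibitors, 4 of 30 were higher (13.3%) and 5 lower (16.7%) at an unadjusted p under 0.05, against 5.61% and 3.81% of all tested genes. Without CFA mouse 71 or CFS mouse 69 1 was lower, without CFA mouse 72 or CFS mouse 68 3 were, and 7 were higher without CFA mouse 74 but 2 without CFS mouse 70.

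Genes of cartilage and bone gave 6 of 16 tested members (37.5%) higher and 1 (6.25%) lower at an unadjusted p under 0.05, against 5.61% and 3.81% of all tested genes, so the lower share was near that of all genes. Chad, which encodes chondroadherin, a cartilage matrix protein that binds collagen, was at 19.1, 9.54 and 16.2 FPKM with Ang II against 3.86, 0.795 and 2.0 with saline, and here mouse 74 did not stand apart from mice 71 and 72 (log2 fold change 2.89, standard error 0.55, adjusted p = 0.103). Acan, the gene of the proteoglycan aggrecan, was at 1.47, 4.98 and 0.872 FPKM with Ang II against 0.594, 0.537 and 0.629 with saline (log2 fold change 1.53, adjusted p = 0.278, and called without mouse 74, adjusted p = 0.048). Mouse 72 was the highest, and over the alternatives the log2 fold change ran from 0.85 to 2.05. Bmp2, a bone morphogenetic protein, was the lower member at 2.62, 3.63 and 2.27 FPKM with Ang II against 5.77, 8.8 and 5.5 with saline (log2 fold change -1.20, adjusted p = 0.165). Of this list, 9 members were below the filter, among them Col2a1, the defining cartilage collagen, at 0.0646 FPKM at most in the 6 libraries.

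Contractile genes of smooth muscle were lower by small amounts. Of 29 tested members, 27 had a lower mean in CFA, 7 (24.1%) were lower and 0 higher at an unadjusted p under 0.05, and 12 (41.4%) lay apart downwards, against 3.81% and 10.8% of all tested genes. The median log2 fold change was -0.27, and none was called. Myh11, the smooth muscle myosin heavy chain, was at 733, 695 and 725 FPKM with Ang II against 965, 1187 and 941 with saline. The treated mice were nearly identical and all below the controls (1.44-fold lower by the means, log2 fold change -0.51, standard error 0.14, adjusted p = 0.22).

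Acta2, the smooth muscle actin, was at 5777, 6604 and 3881 FPKM with Ang II against 6634, 7650 and 6134 with saline, where mouse 72 overlapped the controls and mouse 74 was the lowest (log2 fold change -0.36, standard error 0.19, adjusted p = 0.616). Cnn1, the calponin gene, likewise overlapped through mouse 72, at 485, 529 and 336 FPKM with Ang II against 505, 697 and 558 with saline (log2 fold change -0.40, adjusted p = 0.733). Without mouse 74 the log2 fold change was -0.13 for Acta2 and -0.20 for Cnn1. Myocd, the cofactor of serum response factor that drives the contractile program, was at 14, 30.9 and 16 FPKM with Ang II against 35, 40.6 and 29.3 with saline, with mouse 72 inside the range of the controls (log2 fold change -0.86, adjusted p = 0.436). Ppp1r12a, the targeting subunit of myosin phosphatase, was at 61.6, 60 and 77.6 FPKM with Ang II against 94, 102 and 90.9 with saline, and Tes, a focal adhesion protein, at 21.5, 16.1 and 20.2 FPKM with Ang II against 30.9, 37.6 and 28.4 with saline. These 2 did not overlap (log2 fold changes -0.53 and -0.74).

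Mouse 74 was the lowest of the 6 for both actin and calponin, and without it the median of the contraction list was -0.14. Summed SMC markers were 5660 FPKM in that mouse and 7799 or more in the other 5. Gelsolin (Gsn) is an actin-severing protein also abundant in fibroblasts, and the lists carry it as a fibroblast marker, not as a contraction gene. Its level was 538, 613 and 939 FPKM with Ang II against 1386, 1625 and 1460 with saline. Its CFA mean was 2.14-fold lower, without overlap, and missed the adjusted threshold (log2 fold change -1.14, standard error 0.22, adjusted p = 0.106). Leaving out each of the 6 mice in turn gave 5 to 8 contraction genes lower at an unadjusted p under 0.05 and 0 higher, with a median of -0.14 without CFA mouse 74.

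**Figure D5:**
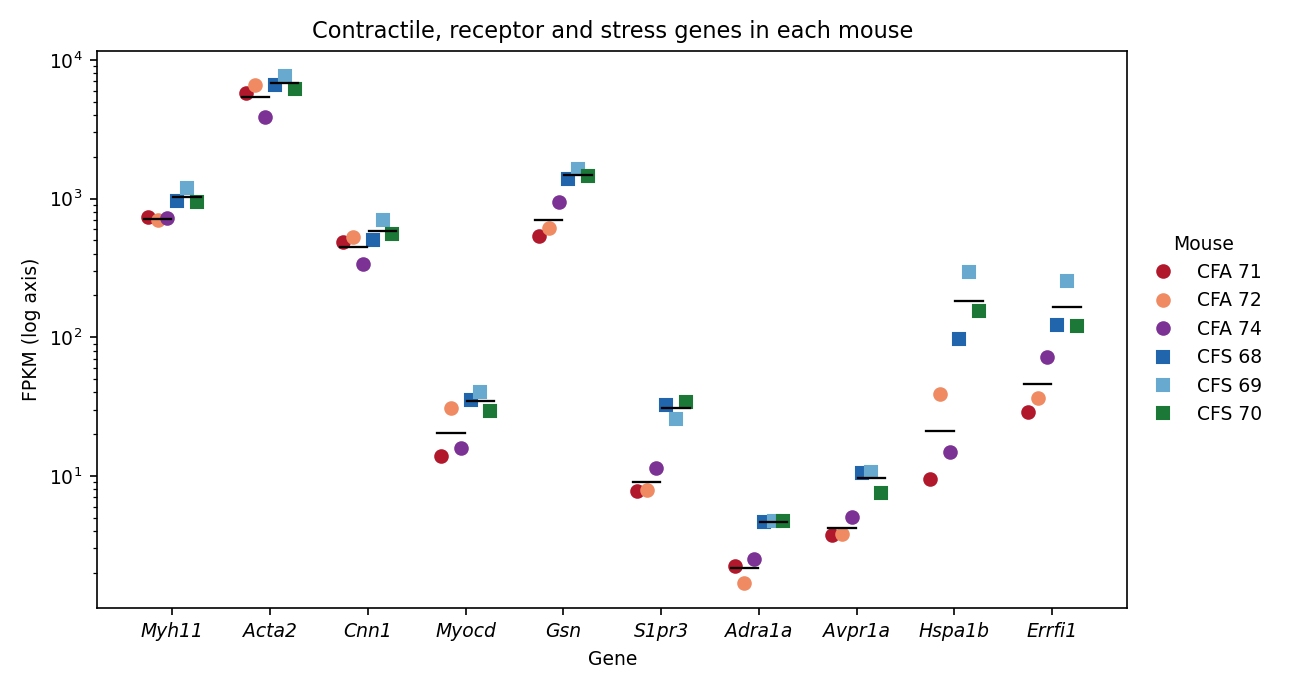
FPKM (vertical log axis) of 10 contractile, receptor and stress genes (horizontal axis) in each mouse, circles for CFA and squares for CFS, with black lines at the group means. CFA lies below CFS without overlap for Myh11, Gsn, S1pr3, Adra1a, Avpr1a, Hspa1b and Errfi1, and the groups overlap for Acta2, Cnn1 and Myocd.

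Of 27 tested ion channel and calcium handling genes of smooth muscle, 8 (29.6%) were lower and 0 higher at an unadjusted p under 0.05, against 5.61% higher and 3.81% lower among all tested genes, 11 (40.7%) lay apart downwards, against 10.8%, and the median log2 fold change was -0.33. Without CFA mouse 72, 2 were lower and 1 higher, and without CFA mouse 71 5 were lower. The higher count was 2 without CFS mouse 69 and 1 without CFA mouse 74 or CFS mouse 68. Kcna5, the voltage-gated potassium channel Kv1.5, was at 2.74, 4.08 and 5.08 FPKM with Ang II against 6.75, 6.57 and 10.5 with saline (log2 fold change -0.99, standard error 0.25, adjusted p = 0.171). The calcium release channel Itpr1 (-0.54) and the calcium pump Atp2a2 (-0.38) were also apart, picked after their values were seen.

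Of 21 genes of the Ang II system itself, 16 were tested, 0 were higher and 1 (6.25%) lower at an unadjusted p under 0.05, against 5.61% and 3.81% of all tested genes, and the median log2 fold change was -0.07. Without CFS mouse 68 or 69 0 were lower, without CFA mouse 71 or CFS mouse 70 2 were, and without CFA mouse 74 3 were. The higher count was 1 without CFA mouse 71. The median ran from -0.21 without CFA mouse 74 to -0.01 without CFS mouse 69. The AT1 receptor is encoded by 2 genes in the mouse. Agtr1b, the more abundant here, was at 4.47, 3.64 and 5.32 FPKM with Ang II against 8.89, 7.94 and 5.05 with saline, with mouse 74 inside the control range (log2 fold change -0.67, adjusted p = 0.435). Agtr1a was at 1.55, 1.39 and 2.22 FPKM with Ang II against 2.33, 1.71 and 2.04 with saline, and the groups overlapped.

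Agtr2, the AT2 receptor gene, did not exceed 0.0851 FPKM in the 6 libraries and Ren1, the renin gene, did not exceed 0.882. Ace, the converting enzyme, was at 133, 95.5 and 139 FPKM with Ang II against 113, 56.6 and 108 with saline (log2 fold change 0.45, 95% interval -0.21 to 1.12), where mouse 69, low in endothelial markers, was also the lowest. Nr3c2, the mineralocorticoid receptor, was at 3.16, 2.31 and 4.23 FPKM with Ang II against 5.16, 5.23 and 4.72 with saline, below the controls in every treated mouse (log2 fold change -0.66, adjusted p = 0.542).

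Among the receptors and ligands of other vasoactive systems, 1 of 34 (2.94%) was higher and 6 (17.6%) lower at an unadjusted p under 0.05, against 5.61% and 3.81% of all tested genes. The higher count was 0 without CFA mouse 71 and 2 without CFA mouse 74 or CFS mouse 69 or 70. The V1a vasopressin receptor gene Avpr1a was at 3.71, 3.78 and 5.05 FPKM with Ang II against 10.5, 10.7 and 7.56 with saline and did not overlap (log2 fold change -1.17, standard error 0.21, adjusted p = 0.0969). The α1A-adrenergic receptor gene Adra1a, also apart, was at 2.25, 1.7 and 2.51 FPKM with Ang II against 4.61, 4.69 and 4.69 with saline (log2 fold change -1.10, standard error 0.23, adjusted p = 0.113). Both code for Gq-coupled receptors of vasoconstrictors. Edn1, which encodes the constrictor endothelin-1, was the higher member at 37.2, 21.6 and 17.2 FPKM with Ang II against 19.8, 4.0 and 9.73 with saline, and overlapped (log2 fold change 1.37, adjusted p = 0.359). Mouse 69 was the lowest for Edn1 and for the summed endothelial markers, and the part of the latter was not tested.

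Feedback regulators of G proteins gave 1 of 28 members (3.57%) higher and 2 (7.14%) lower at an unadjusted p under 0.05, near the 5.61% and 3.81% of all tested genes, and without CFS mouse 70 5 were lower. Leaving out any of the 3 CFA mice left 0 higher. Rgs2, which shortens Gq signals, was at 6.42, 5.91 and 8.13 FPKM with Ang II against 8.96, 11.8 and 10.2 with saline (log2 fold change -0.59, adjusted p = 0.312), without overlap. Among immediate early genes, 4 of 26 (15.4%) were lower and 0 higher at an unadjusted p under 0.05, against 3.81% and 5.61% of all tested genes. The lower count was 9 without CFS mouse 70 and 1 without CFS mouse 69 or CFA mouse 74, and without CFA mouse 74 1 was higher. Fos was at 36.9, 24.2 and 17.5 FPKM with Ang II against 59.8, 132 and 24.7 with saline and Nr4a1 at 16.1, 20.9 and 18.5 FPKM with Ang II against 39.9, 118 and 17.8 with saline, and in both mouse 69 was the highest and mouse 70 fell among the treated mice. Klf4, a factor linked to the loss of the contractile state, was at 22.2, 31.6 and 38.1 FPKM with Ang II against 38.4, 30.4 and 42.1 with saline, with overlap (log2 fold change -0.29, adjusted p = 0.78). The paper reports a marked rise of KLF4 protein with Ang II, a measure these RNA values do not cover.

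A pair of heat shock genes had the largest differences downwards among non-overlapping genes of at least 5 FPKM. Hspa1b, an inducible HSP70 gene, was at 9.56, 38.9 and 14.8 FPKM with Ang II against 96.9, 295 and 153 with saline, a mean 8.64-fold lower in CFA (log2 fold change -3.21, standard error 0.68, adjusted p = 0.11). Its near-identical neighbour Hspa1a was at 9.1, 21.2 and 9.13 FPKM with Ang II against 49, 162 and 70 with saline (log2 fold change -2.76, adjusted p = 0.169). Fragments of the pair can be shared, so their separate levels are uncertain, and Hspa1a shares 19% of its exon bases with a second annotated gene. Hspb1, the small heat shock protein HSP27, was at 248, 471 and 204 FPKM with Ang II against 602, 900.2 and 738 with saline (log2 fold change -1.35, adjusted p = 0.235). In all 3 the controls were higher without overlap, mouse 69 was the highest control and mouse 72 the highest treated mouse.

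Other large differences downwards were seen outside the lists. Errfi1, a feedback inhibitor of the epidermal growth factor receptor, was at 28.7, 36.2 and 72.2 FPKM with Ang II against 122, 253 and 121 with saline (log2 fold change -1.88, standard error 0.44, adjusted p = 0.149). Lepr, the leptin receptor, was tight within both groups at 3.06, 2.38 and 4.08 FPKM with Ang II against 9.19, 9.98 and 8.66 with saline (log2 fold change -1.55, standard error 0.25, adjusted p = 0.0616). Apod, a lipid carrier of the lipocalin family, was at 2.56, 3.27 and 5.0 FPKM with Ang II against 16.6, 9.56 and 7.56 with saline (log2 fold change -1.58, adjusted p = 0.218). In Inmt, a methyltransferase gene, and Itih4, of the inter-α-trypsin inhibitor family, mouse 74 was close to the controls. Inmt was at 10.4, 11.7 and 39.1 FPKM with Ang II against 56.5, 65.4 and 42.4 with saline and Itih4 at 11, 13.3 and 36.6 FPKM with Ang II against 38.4, 55.8 and 45.1 with saline. Itih4, Errfi1 and Lepr were called without mouse 74 (-1.92, adjusted p = 0.00374, -2.26, adjusted p = 0.0404, and -1.74, adjusted p = 0.0148).

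Clock genes gave 0 of 20 higher and 3 (15.0%) lower at an unadjusted p under 0.05, against 5.61% and 3.81% of all tested genes. Without CFA mouse 71 1 was higher, and without CFS mouse 69 2 were lower. The repressor Cry1 was at 1.43, 1.86 and 1.14 FPKM with Ang II against 4.05, 3.06 and 3.98 with saline (log2 fold change -1.28, adjusted p = 0.106), and Nfil3, a repressor of D-box genes, at 9.95, 13.2 and 11.8 FPKM with Ang II against 27.1, 40.8 and 20.7 with saline (log2 fold change -1.28, adjusted p = 0.438). Dbp, the D-box activator, lay the other way at 18.6, 36.2 and 26.8 FPKM with Ang II against 8.46, 12.9 and 15.9 with saline (log2 fold change 1.12, adjusted p = 0.565). The 3 genes did not overlap between groups. Dbp shares 18% of its exon bases with a second annotated gene.

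The median inflammatory gene was highest in CFA mouse 72. Of 41 tested cytokine and chemokine genes, 11 (26.8%) were higher and 1 (2.44%) lower at an unadjusted p under 0.05, against 5.61% and 3.81% of all tested genes, with a median log2 fold change of 0.66. The median member stood 0.24, 1.75 and 0.07 log2 units above its CFS mean in mice 71, 72 and 74. Without mouse 72 the median was 0.17 and 7 members were higher, without mouse 71 it was 1.04, and without mouse 74 18 were higher. Ccr2, the receptor that brings monocytes into tissue, was at 2.45, 8.31 and 2.87 FPKM with Ang II against 0.696, 0.83 and 1.33 with saline, without overlap (log2 fold change 1.97, standard error 0.41, adjusted p = 0.107). Il1b was at 1.08, 5.44 and 0.47 FPKM with Ang II against 0.0851, 1.15 and 0.304 with saline and overlapped (log2 fold change 1.77, adjusted p = 0.532). Cxcl5, a neutrophil chemokine, was listed at 0 in the 3 CFS mice, where up to 3 fragments per library are allowed, and its recovered fragments in the CFA mice were 8, 18 and 5.

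Macrophage markers had the same shape. Of 24, 9 (37.5%) were higher and 0 lower at an unadjusted p under 0.05, against 5.61% and 3.81% of all tested genes, and 9 (37.5%) lay apart upwards, against 9.44%, with a median log2 fold change of 0.55. Their summed FPKM was 522, 1028 and 472 with Ang II and 455, 413 and 383 with saline. None of the 24 markers was at 0 in all 6 libraries. Without CFA mouse 72 the median was 0.22 and 5 were higher, without CFS mouse 70 4 were, and without CFA mouse 74 15 were. Trem2, a lipid-sensing receptor of macrophages, was at 1.26, 1.7 and 0.668 FPKM with Ang II against 0.263, 0.432 and 0.305 with saline (log2 fold change 1.53, adjusted p = 0.188), and Cd68, a lysosomal marker, at 10.2, 24 and 8.14 FPKM with Ang II against 7.83, 8.72 and 7.56 with saline (log2 fold change 0.64, adjusted p = 0.568), where mouse 74 overlapped the controls. Over the alternatives the log2 fold change of Cd68 ran from 0.18 to 0.95.

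The phagocyte NADPH oxidase followed mouse 72 as well. Cybb, its catalytic subunit, was at 3.22, 6.51 and 3.4 FPKM with Ang II against 2.29, 2.25 and 2.13 with saline, Ncf1, its cytosolic organizer, at 2.67, 9.15 and 2.94 FPKM with Ang II against 2.3, 2.32 and 2.06 with saline, and Rac2, its GTPase, at 3.54, 6.12 and 3.24 FPKM with Ang II against 2.41, 1.95 and 2.32 with saline. The treated mice were above the controls in all 3 (log2 fold changes 0.87, 0.88 and 0.87, adjusted p = 0.317, 0.475 and 0.195). In the full list of NADPH oxidase and antioxidant genes 5 of 25 (20%) were higher at an unadjusted p under 0.05, against 5.61% of all tested genes (2 members without CFA mouse 72 and 3 without CFS mouse 70). The median log2 fold change was 0.07, from 0.01 without CFA mouse 72 to 0.16 without CFA mouse 74.

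Of 28 interferon-stimulated genes, 0 reached an unadjusted p under 0.05 in either direction (3 were higher without CFA mouse 71 and 1 without CFA mouse 74), and Rsad2, an antiviral enzyme, was at 1.18, 6.87 and 1.5 FPKM with Ang II against 1.21, 0.937 and 1.51 with saline, high in mouse 72 alone. Of 11 tested neutrophil markers, 4 (36.4%) were higher and 0 lower at an unadjusted p under 0.05, against 5.61% and 3.81% of all tested genes, with a median of 0.47 on the log2 scale (0.93 without CFA mouse 71, and 2 higher without CFA mouse 72 or CFS mouse 70). Summed neutrophil markers were 11.6 to 30.4 FPKM in CFA and 3.99 to 16.1 in CFS, T cell markers 1.96 to 5.89 and 1.26 to 4.29, and B cell markers 26.8 to 42.7 and 22.5 to 37.1. All 3 ranges overlapped.

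Ccn2 (ENSMUSG00000019997, chromosome 10, 24595442 to 24598683), the floxed gene, was expressed in both groups, at 1013, 1105 and 564 FPKM with Ang II against 709.5, 1108 and 480.1 with saline. The groups overlapped (two-sided exact permutation test, p = 0.8), mouse 70 and mouse 74 were the lowest of their groups, and the log2 fold change was 0.25 with a 95% interval of -0.49 to 0.99. Leaving out CFS mouse 70 turned it to -0.0482, leaving out CFS mouse 69 gave 0.56, and leaving out CFA mouse 74 gave 0.55. In the mice labelled CCN2SMCΔ the means were 554 ± 106 FPKM in CSS and 328 ± 71.9 in CSA (SD, n = 3 each). The CSS mean lay inside the range of the CFS mice, so under saline the level of Ccn2 in whole tissue does not bear out the label. Under Ang II the CSA mean lay below each CFA mouse. The paper reports by qPCR that nearly all CCN2 mRNA was lost in Ang II-infused CCN2SMCΔ aortas. That is a larger reduction than between the means here, 894 FPKM in CFA and 328 in CSA. It also reports lower CCN2 protein in CCN2SMCΔ aortas with either infusion. In control mice it reports a substantial rise of CCN2 protein with Ang II, whereas the RNA values here overlapped. Protein was not measured in these data. Ccn2 shares 23.2% of its exon bases with a second annotated gene. Of 34 genes of TGF-β and BMP signalling, 3 (8.82%) were higher and 2 (5.88%) lower at an unadjusted p under 0.05, near the 5.61% and 3.81% of all tested genes, with a median log2 fold change of -0.01. Without CFA mouse 71 1 was higher, and without CFA mouse 72 4 were lower. The median ran from -0.06 to 0.07 with 1 mouse left out. Bmp4, a growth factor of the vessel wall, was the largest higher member that did not overlap, at 69.1, 49.1 and 50.6 FPKM with Ang II against 40.9, 19.6 and 30.1 with saline (log2 fold change 0.94, adjusted p = 0.239). Smad3, which carries the TGF-β signal to the nucleus, was at 10.7, 6.2 and 9.77 FPKM with Ang II against 8.11, 10.3 and 8.19 with saline, with overlap.

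Several single genes were higher in each treated aorta than in any control. Esm1, an endothelial proteoglycan, was at 18.6, 13.1 and 2.05 FPKM with Ang II against 0.877, 1.81 and 0.857 with saline (log2 fold change 2.74, standard error 0.72, adjusted p = 0.20), and Igfbp2, a binding protein of insulin-like growth factors, at 204, 166 and 22.9 FPKM with Ang II against 13.8, 20.8 and 20.8 with saline (log2 fold change 2.34, adjusted p = 0.422). In both, mouse 74 was near the controls and mice 71 and 72 were several times higher. Sdcbp2, a PDZ scaffold protein, was at 7.45, 4.38 and 3.81 FPKM with Ang II against 2.17, 0.306 and 2.98 with saline (log2 fold change 1.85, adjusted p = 0.331). Mouse 69 was far below the other controls, and over the alternatives the log2 fold change ran from 0.95 to 2.41. Uchl1, a deubiquitinase of neurons, was at 36.5, 37.9 and 21.1 FPKM with Ang II against 19.1, 10.7 and 14.6 with saline (log2 fold change 1.09, adjusted p = 0.19, with 18.1% of its exon bases shared with a second gene). It is the highest member of the list of Schwann cell and neuron markers. Of the 13 tested there, 5 had a higher and 8 a lower mean log2 level in CFA. The median of that list was -0.52, from -0.74 to 0.29 over the alternatives.

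Markers of blood were high in all 3 CFA mice and in CFS mouse 69. Of 7 tested erythrocyte markers, all had a higher mean log2 level in CFA and 3 (42.9%) were higher at an unadjusted p under 0.05, against 5.61% of all tested genes, and the median difference was 2.03 on the log2 scale. The groups overlapped for each of the 7. Without CFA mouse 71 or CFS mouse 70 0 were higher at that limit, without CFS mouse 68 1 was, and without CFS mouse 69 6 were. Hbb-bt, a β-globin, was at 145, 41.4 and 42.1 FPKM with Ang II against 5.31, 55.7 and 5.28 with saline, and the summed erythrocyte markers were 2526, 782 and 962 FPKM in CFA and 169, 1260 and 145 in CFS. Acta1, the skeletal muscle actin, was high in mouse 68 only, at 2.15, 0.644 and 1.5 FPKM with Ang II against 75.6, 1.36 and 1.74 with saline. Endothelial markers gave a median log2 fold change of 0.24, which was -0.37 without CFS mouse 69, -0.01 without CFA mouse 74 and 0.57 without CFS mouse 68 or 70, so that its direction rested on single mice. Fibroblast markers gave one of 0.17, which was 0.08 without CFA mouse 71 or CFS mouse 70. Of 16 such markers, 5 (31.2%) were higher and 2 (12.5%) lower at an unadjusted p under 0.05, against 5.61% and 3.81% of all tested genes, and without CFA mouse 71 1 was lower. The part of these cells in the differences above was not tested.

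The design also asks whether the response differed from that in mice labelled CCN2SMCΔ. The difference of the Ang II effects, (CFA minus CFS) minus (CSA minus CSS), was called (same limits) for 1073 genes higher in the floxed mice (7.31%) and 1158 lower (7.89%). In the CCN2SMCΔ-labelled mice on their own, Ang II gave calls for 10.9% of the tested genes upwards and 9.36% downwards. Of the 40 cell division genes, 0 passed both limits in limma, Pcna (difference -0.85, adjusted p = 0.0227) and Mcm7 (difference -0.93, adjusted p = 0.0322) passed the adjusted p alone, and their median effect was 2.17 in the floxed and 2.54 in the CCN2SMCΔ-labelled mice. Of the 29 contraction genes, 25 passed, all higher in the floxed mice, with medians of -0.27 and -2.92. In the same contrast of CCN2SMCΔ-labelled mice, markers of other cells also differed: the median effect was 3.54 for macrophages (19 of 24 called higher), 6.54 for neutrophils (11 of 11) and 3.64 for T cells (12 of 12), and their part in the contraction values was not tested. For Myh11 the effects were -0.51 and -4.54, a difference of 4.03 (standard error 0.20, adjusted p = 3.85e-06).

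Of the genes described above, Cthrc1 had effects of 2.79 and 5.58 (difference -2.79, adjusted p = 0.00189), Gxylt2 of 1.06 and -0.63 (difference 1.69, adjusted p = 0.000235), and Postn of 1.15 and -0.91 (difference 2.06, adjusted p = 0.0096). For Gxylt2 and Postn the signs were opposite. Eln, at 1.35 and -0.33, did not pass (difference 1.69, standard error 0.59, adjusted p = 0.0587). S1pr3, the gene with the smallest p in the floxed comparison, had effects of -1.77 and -1.54 (difference -0.22, standard error 0.26, adjusted p = 0.566).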

How the data were processed

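RNA-Seq was performed by the study on poly(A) RNA of abdominal aortas. The authors deposited 1 table of FPKM, with 1 column per mouse and no pooling, in which 0 columns were left unused. The submitters' processing notes name HISAT2 2.0.5, StringTie 1.3.3b, featureCounts 1.5.0-p3 and the mm10 build, without their roles. Groups and mouse numbers came from the sample titles. The table lists 55092 features, of which 54409 took a symbol, a position and an exon length from GENCODE M21 (GRCm38). With these lengths, 97.8% to 98.4% of values under 100 fragments were whole within 0.02 of a fragment, and the recovered fragments served as depth. Any further scaling between libraries is not given in the sources used here, so depth is an estimate. Whether counting used strand is not given either. A value of 0 allows up to 3 fragments, a limit that covers counting error only. For 170 tested genes, over 50% of the exon bases also belong to another gene, and their levels are uncertain.

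The values were tested as log2(FPKM + 0.1) with limma 3.58.1 in R 4.3.3 (lmFit, then eBayes in its trend and robust modes), fitting a mean for each of the 4 groups from all 12 libraries, with Benjamini-Hochberg adjustment over 14676 genes. All p-values of single genes are two-sided and from this fit, and fold changes on this scale understate those of low genes. Each library is taken as 1 mouse, and p-values measure the spread between these samples. The test was tried on simulated data before use. Single values per mouse used exact permutation tests (scipy 1.17.1), and figures were drawn with matplotlib 3.10.9.

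The text names genes past an adjusted p of 0.05, the 12 largest differences in each direction among non-overlapping genes whose higher group averaged 5 FPKM or more, the leading members of 36 gene lists, genes the study names, members of the renin-angiotensin list and the 5 genes most moved by CFA mouse 74. Others are said to be picked after their values were seen. Part of the genes this rule picks is left out. The members and lists were chosen with earlier results of these data known. No test was run on a list. Alternatives covered the pseudocount (0.01 and 1), filters, scaling, limma settings, array weights, the groups fitted, the call rule, the distance and each mouse left out.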

Additional observations from a re-analysis of the deposited data

Results flagged for a closer look

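The effect of Ang II differed between mice labelled CCN2fl/fl and CCN2SMCΔ in 38 of 77 genes checked for it, a set chosen largely for genes that differ, by the interaction term of the limma fit (adjusted p under 0.05 with Benjamini-Hochberg adjustment and an absolute difference over 1.5). Of all tested genes, 7.31% passed the same limits with a higher and 7.89% with a lower effect in the floxed mice. Values are log2 differences, (CFA minus CFS) minus (CSA minus CSS), from 3 mice in each group, and a positive value means a higher effect in the floxed mice. Among contractile and wall genes the difference was 4.03 for Myh11, 2.73 for Acta2, 3.62 for Cnn1, 2.63 for Myocd, 2.57 for Gsn and 1.82 for Ppp1r12a. Among receptors and regulators of vascular tone the difference was 3.09 for Adra1a, 2.48 for Agtr1b, 2.57 for Nr3c2, 3.23 for Ace and -2.46 for Rgs2. Among matrix and matricellular genes the difference was -2.79 for Cthrc1, -1.98 for P4ha3, 2.06 for Postn, -2.60 for Timp1, -4.36 for Spp1, 1.96 for Fn1, 2.54 for Col4a5 and 3.39 for Col18a1. Among inflammatory genes the difference was -4.04 for Ccr2, -5.42 for Il1b, -6.86 for Cxcl5, -2.98 for Cd68, -2.62 for Trem2, -3.41 for Cybb, -2.98 for Ncf1, -3.02 for Rac2 and -4.59 for Rsad2. For the remaining genes the difference was 2.54 for Gm11223, 1.69 for Gxylt2, 2.53 for Hspb1, -2.37 for Nfil3, 3.19 for Inmt, -1.96 for Apod, 1.59 for Bmp4, -1.82 for Cry1, 3.09 for Dbp and 2.19 for Uchl1. The adjusted p ran from 3.85e-06 for Myh11 to 0.0388 for Apod. Cxcl5 was listed at 0 in all CFS mice, so its difference is no fold. The part of the aneurysms that the paper reports in Ang II-infused CCN2SMCΔ mice was not tested.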

How the results depend on the processing

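The counts of genes called higher and lower under Ang II, 3 and 1 as reported, depended on the settings. A pseudocount of 1 gave 2 and 2, of 0.01 gave 0 and 1 (831 and 539 at an unadjusted p under 0.05), no filter on low values 3 and 2, a mean of at least 5 FPKM 5 and 1, and a filter on the 6 floxed libraries 7 and 1. Median-of-ratios scaling and scaling to library totals each gave 7 and 1, and array weights 133 and 14. The limma fit without trend or robust settings gave 0 and 1 (892 and 519 at an unadjusted p under 0.05), the fit of CFA and CFS alone 0 and 0 (967 and 942), and the fit without the CSA group 4 and 2. An unadjusted p with the same fold limit gave 206 and 37. With each of the 12 mice left out in turn the counts ran from 0 to 112 higher and from 0 to 12 lower. The adjusted p over these alternatives ran from 0.000981 to 0.173 for S1pr3, from 0.00342 to 0.221 for Cthrc1, from 0.00181 to 0.243 for Pbk and from 0.00303 to 0.221 for Gm11223. The Ccn2 log2 fold change ran from -0.0482 without CFS mouse 70 to 0.56 without CFS mouse 69. The median of the cell division list ran from 0.41 (mean of at least 5 FPKM, 5 members left) to 2.76 (without CFA mouse 74), with 1.08 under the filter on the floxed libraries (17 members) and 0.96 with a pseudocount of 1. Apart from the members the filters remove, the cause was not tested for any of these. Over the single genes named, 1635 recomputed values kept their direction and side of the threshold, 61 moved past it, 48 fell short of it and 1, that of Ccn2, changed sign. Most of these genes were not called to begin with. For the 4 called genes, the adjusted p was under 0.05 in 16 of 23 recomputed values for S1pr3, 11 of 23 for Cthrc1, 6 of 22 for Pbk and 10 of 22 for Gm11223. The ratio of distances between to within groups was 1.19 with 1 minus Spearman's correlation. Low fragment numbers limit Pbk, Gm11223 and Cxcl5. No paired analysis was possible because the labels give each mouse a number of its own.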
